A study of Mus musculus with 4 samples.

Results

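The genes described are 44 nuclear genes of the mitochondrial respiratory chain, of 18193 genes that the array annotation pairs with a probe set of their own. They were listed by name and not by a threshold on the measured values: 21 subunits of complex I, 4 of complex II, 7 of complex III, both cytochromes c and 10 subunits of complex IV. The 3 testis isoforms *Cyct*, *Cox6b2* and *Cox8c* are among them. Each gene was read on the brightest of the probe sets annotated to it alone, and all 44 had one. Whole testes were taken from adult mice aged 2 months, 2 WT and 2 *Ccnyl1*-/- animals, all given the strain C57BL/6 without a substrain, and the RNA of each mouse was hybridised to 1 Affymetrix array. The mutants were homozygous for a knockout-first allele with a LacZ cassette, Ccnyl1 tm1a(EUCOMM)Wtsi. The allele was disrupted in the whole body, not in 1 testis cell type, and mutants came from heterozygous matings because males lacking CCNYL1, a cyclin, are sterile. The arrays ask which testis RNAs differ in the absence of CCNYL1.

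The respiratory chain passes electrons from NADH through complex I, or from succinate through complex II, to ubiquinone, then through complex III and cytochrome c to complex IV, which reduces oxygen. The proton gradient built on the way drives ATP synthase. Male germ cells replace a few of the common subunits with isoforms made in the testis, and in the finished spermatozoon the mitochondria are wound around the midpiece of the flagellum.

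The signals were MAS 5.0 intensities on a linear scale, and each array had a 2% trimmed mean of 500.0. *Ccnyl1* itself read 2256 and 2425 in the WT mice against 921 and 969 in the *Ccnyl1*-/- mice, so that its probe set kept 40.4% of the WT mean (log2 fold change -1.29 ± 0.09 SE, limma adjusted p = 0.00463, 2 mice a genotype). Between arrays, log2 signals, taken with the offset given in the methods, correlated at 0.974 to 0.977. This covers all probe sets other than controls, including those too dim to test. The 3'/5' ratio of *Actb*, a sign of RNA quality, lay between 1.74 and 1.87 and did not separate the genotypes. Germ cell markers were bright, with *Prm1*, a protamine of elongating spermatids, at 36539 on the first WT array, while *Myh4* of skeletal muscle read 2 to 25 and *Ucp1*, the defining gene of brown fat, 7 to 29 over the arrays. *Myh4* was too dim to test, and of 5 muscle markers tested 3 were above 0 and 2 below. *Ckm* read 82 to 119 and overlapped between the genotypes. *Acta1* read 102 and 94.5 in WT against 62.2 and 47.3 in the mutants, both lower. *Mb* read 38.7 and 5.47 against 54.4 and 62.3, both higher. Other genes of the fat list were measured, *Adipoq* at 686 to 826 and *Cidea* at 283 to 357, and both overlapped between the genotypes. The summed signal of 9 spermatocyte markers was 89506 and 87265 in the WT mice against 92475 and 89749 in the mutants. The lower mutant sum was just above the higher WT sum. The brightest of these markers, *Ldhc*, with a mean of 41061, overlapped between the genotypes. Of the 9 markers, *Sycp3* and *Piwil1* were higher in both mutants, *Dmc1* and *Pgk2* lower in both, and 5 overlapped. The summed signal of 8 round spermatid markers ran from 79868 to 82796 over the WT mice and from 77145 to 79290 over the mutants, and that of 8 elongating spermatid markers from 235551 to 241050 and from 228680 to 240042. In RNA of a whole testis, fewer cells of a type and less RNA per cell cannot be told apart.

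No member of the respiratory chain was called between the genotypes. Of 32438 probe sets tested, 4 (0.0123%) passed a limma adjusted p of 0.05, all of them lower in *Ccnyl1*-/- testis, and 0 of the 44 members were among them; the smallest adjusted p of a member was 0.796. The log2 fold changes of the members, *Ccnyl1*-/- over WT, ran from -0.22 (*Ndufv1*) to 0.18 (*Cyct*), with a median of -0.02 against 0.02 over all tested probe sets and -0.02 over the 6575 bright probe sets, those whose mean signal reached 1000, as it did for 43 members. Of the 44, 19 were above 0 and 25 below, a split that became 22 and 22 after quantile normalisation and 9 and 35 when the arrays were scaled to one median. All 95% intervals stayed within 1.5-fold either way, from 0.740-fold at the low end of *Ndufv1* to 1.37-fold at the high end of *Cox8a*. For 37 of them, 84.1%, the interval stayed within 1.25-fold, against 73.7% of probe sets with a signal of at least 1000. Since each genotype had 2 mice, smaller differences than these could not be resolved.

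**Figure D1:**
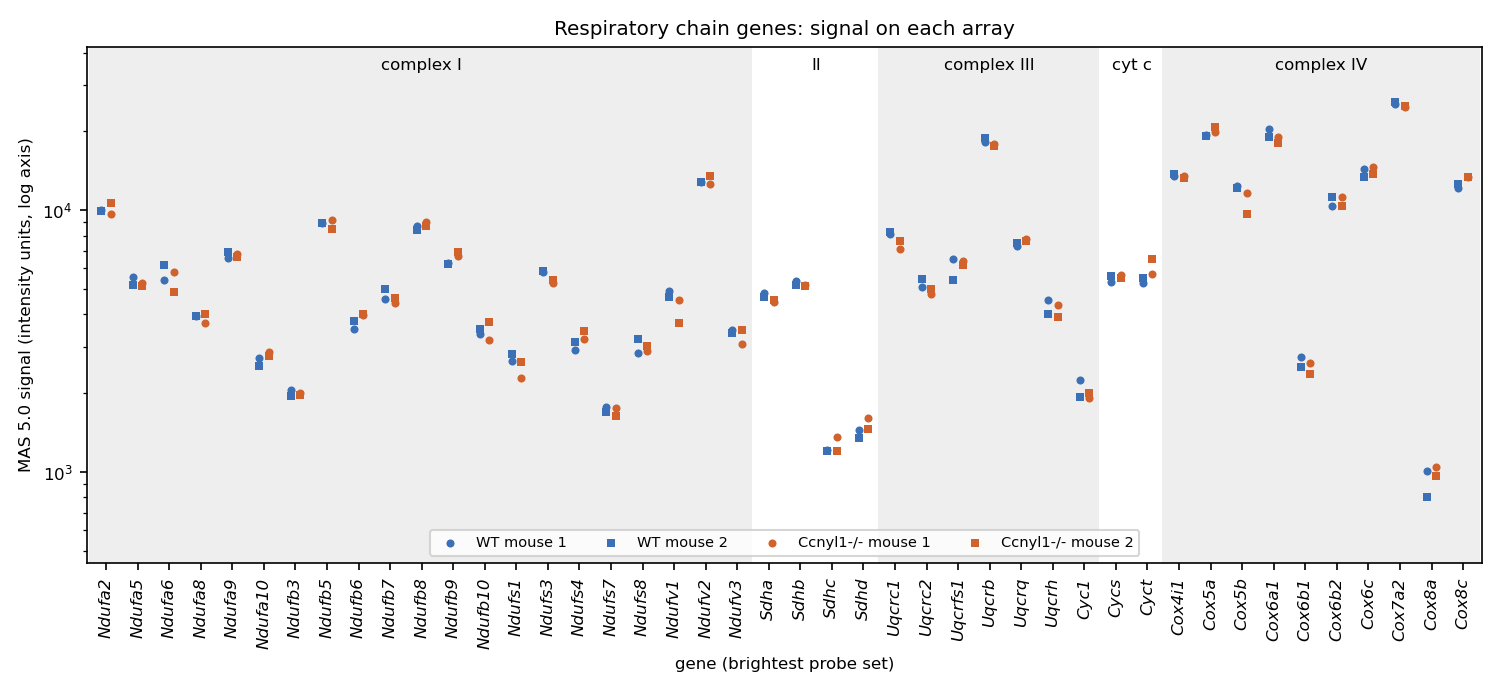
MAS 5.0 signal (intensity units, log axis) of the 44 members by complex, with 1 point for each of the 4 arrays; blue points are WT mice, orange points *Ccnyl1*-/- mice, and circles and squares are mouse 1 and mouse 2 of a genotype, which are not pairs. The mean signals run from 954 (*Cox8a*) to 25298 (*Cox7a2*), and for most genes the points of both genotypes lie close together; levels of different genes are not comparable on this axis.

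At an unadjusted p under 0.05, 2 members were higher in *Ccnyl1*-/- testis (*Cyct* and *Cox8c*) and 3 lower (*Ndufv1*, *Cox5b* and *Uqcrc1*). The background for these counts was 6.05% of all tested probe sets, 3.47% higher and 2.59% lower, and 9.99% of the bright ones, 3.82% higher and 6.17% lower. Both values of the mutant lay above both WT values for 9 members and below them for 11, and for 24 the genotypes overlapped. In all tested probe sets the genotypes lay apart in 35.9% (20.6% higher, 15.3% lower), and in those with a signal of at least 1000 in 41.8% (16.6% higher, 25.2% lower). After quantile normalisation 4 members were higher and 0 lower at this p, and with the arrays scaled to one median 0 were higher and 9 lower.

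**Figure D2:**
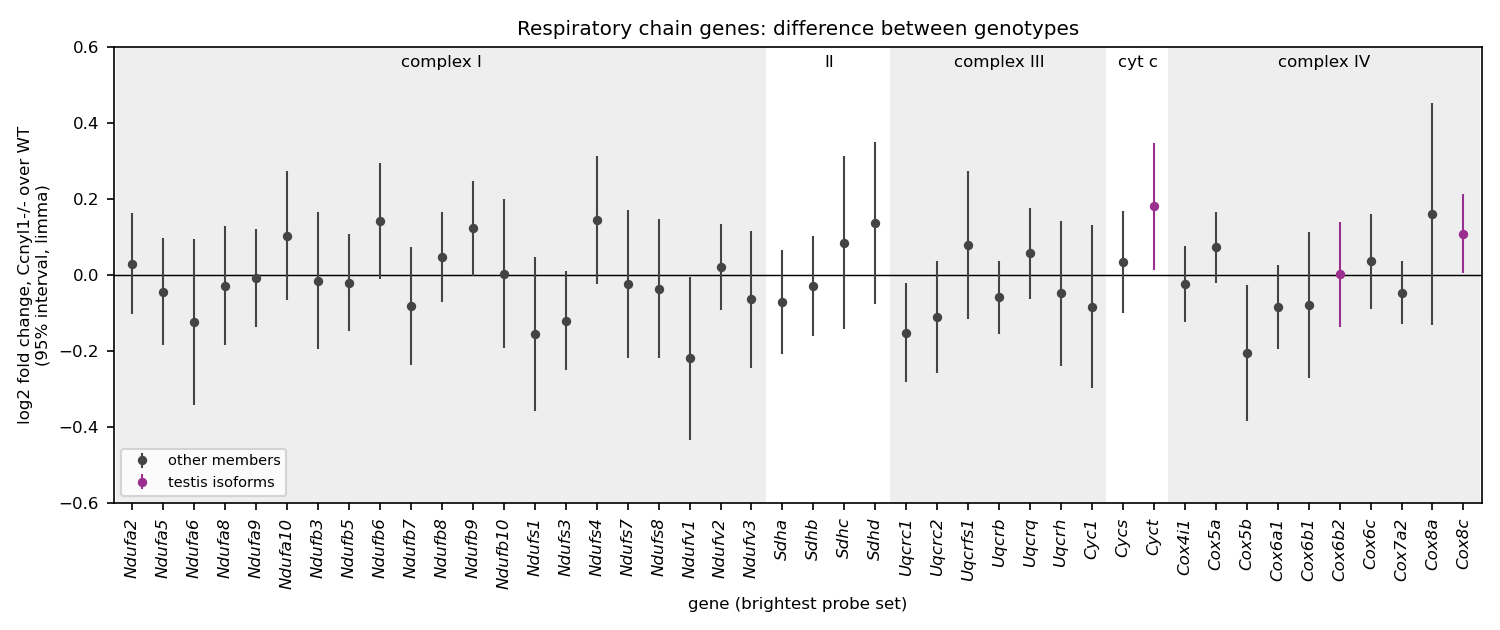
Log2 fold change of each member, *Ccnyl1*-/- over WT, with its 95% interval from limma (4 arrays, 2 mice a genotype); the testis isoforms are in purple. The points lie between -0.22 and 0.18 with 19 above 0 and 25 below (22 and 22 after quantile normalisation, 9 and 35 with the arrays scaled to one median), and 39 of the 44 intervals include 0.

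The testis isoforms were examined first, each beside the somatic isoform it stands in for. *Cyct* codes for the cytochrome c of the testis and *Cycs* for the cytochrome c of somatic cells, the mobile carrier between complexes III and IV. *Cox6b2* and *Cox6b1* code for the testis and the common form of a small complex IV subunit that faces the intermembrane space. *Cox8c* and *Cox8a* code for forms of the smallest nuclear-coded subunit of complex IV. To show what the isoforms of a pair share before their start sites, the 250 bases before the RefSeq start are printed for the pairs that have an entry, 5′ to 3′ on the minus strand of GRCm38.p6, for *Cycs* (chr6:50566570-50566819), *Cyct* (chr2:76360454-76360703), *Cox6b1* (chr7:30626115-30626364) and *Cox6b2* (chr7:4753095-4753344). Capitals mark matches to the motifs NRF-1 core (GCATGCGC), CRE (TGACGTNA), GABP (CCGGAAG) and CCAAT box (CCAAT), searched on both strands; no matches overlapped.
Cycs: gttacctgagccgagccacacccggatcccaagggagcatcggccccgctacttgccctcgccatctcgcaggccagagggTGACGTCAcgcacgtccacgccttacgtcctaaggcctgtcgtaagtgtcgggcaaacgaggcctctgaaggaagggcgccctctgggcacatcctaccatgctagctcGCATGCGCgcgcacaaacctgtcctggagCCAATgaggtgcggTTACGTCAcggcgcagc
Cyct: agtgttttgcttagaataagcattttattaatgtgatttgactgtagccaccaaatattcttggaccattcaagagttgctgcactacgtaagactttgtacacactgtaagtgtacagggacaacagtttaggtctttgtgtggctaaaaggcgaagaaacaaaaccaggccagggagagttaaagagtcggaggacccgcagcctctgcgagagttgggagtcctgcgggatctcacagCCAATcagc
Cox6b1: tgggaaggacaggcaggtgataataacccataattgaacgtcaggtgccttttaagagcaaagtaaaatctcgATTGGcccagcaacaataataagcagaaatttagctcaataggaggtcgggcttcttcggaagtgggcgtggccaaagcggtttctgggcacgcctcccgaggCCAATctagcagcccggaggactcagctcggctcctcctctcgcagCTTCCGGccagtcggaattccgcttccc
Cox6b2: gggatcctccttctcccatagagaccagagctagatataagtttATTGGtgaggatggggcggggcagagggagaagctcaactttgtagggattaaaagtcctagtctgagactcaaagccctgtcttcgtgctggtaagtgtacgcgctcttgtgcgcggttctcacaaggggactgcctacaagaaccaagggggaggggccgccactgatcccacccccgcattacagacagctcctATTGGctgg

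The *Cycs* window had 23 CpG and 64.0% G+C, and the *Cyct* window 6 CpG and 45.6%. The *Cycs* window held the NRF-1 core letters at 60 to 53 bases before the start, CRE letters at 169 to 162 and at 17 to 10, and a CCAAT box at 31 to 27, whereas the *Cyct* window held only a CCAAT box, at 9 to 5. The *Cox6b1* window (14 CpG, 54.0% G+C) held GABP letters at 28 to 22 and CCAAT boxes at 177 to 173 and at 74 to 70. That of *Cox6b2* (8 CpG, 54.8%) held only CCAAT boxes, at 206 to 202 and at 9 to 5. Over 32851 promoter windows of this length, the NRF-1 core was found in 2.26%, the CRE in 2.52%, the GABP letters in 6.91% and the CCAAT box in 33.8%. Of the 33 members with a window, 5, 3, 7 and 13 genes held them, and the member windows had a median of 14 CpG against 6 over all windows. A match of letters is a description of the window and not a bound site.

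*Cyct* read 5277 and 5505 in WT testis and 5727 and 6522 in *Ccnyl1*-/- testis. Both mutant values lay above both WT values, and the second mutant mouse stood highest. The log2 fold change was 0.18 ± 0.07 (SE), with a 95% interval of 0.01 to 0.35 and a limma adjusted p of 0.810, and it ranged from 0.09 to 0.27 when each mouse was left out in turn. *Cycs* read 5330 and 5602 in WT and 5658 and 5530 in the mutants, values that overlapped, with a log2 fold change of 0.03 ± 0.06 that turned to -0.04 with the arrays scaled to one median. Its other tested probe sets, at 0.07 and 0.06, had the same sign.

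*Cox8c* read 12163 and 12599 in WT and 13353 and 13348 in *Ccnyl1*-/- testis. The mutant mice were nearly equal and both above WT. The log2 fold change was 0.11 ± 0.05 (95% interval 0.01 to 0.21, limma adjusted p = 0.812). A dimmer probe set of *Cox8c* read 247, 152, 331 and 230 in the same order of mice, and there the genotypes overlapped. *Cox8a* was the dimmest member, at 1007 and 800 in WT and 1043 and 968 in the mutants. Its interval was the widest of all members, -0.13 to 0.45.

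*Cox6b2* read 10360 and 11249 in WT and 11230 and 10398 in the mutants. The genotypes covered nearly the same range, and the log2 fold change was 0.00 ± 0.06, with an interval of -0.14 to 0.14. *Cox6b1* read 2747 and 2514 against 2606 and 2373, which also overlapped (-0.08 ± 0.08). All 3 testis isoforms were thus at or above 0, with a median of 0.11, but *Cox6b2* turned to -0.08 with the arrays scaled to one median, where *Cyct* was 0.10 and *Cox8c* 0.03. *Cox7b2*, a further complex IV isoform of the testis that is not among the 44, read 5457 and 6345 against 5608 and 5733, which overlapped (-0.05 ± 0.08).

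The change of a testis isoform relative to its somatic partner was taken within each array, as the difference of their log2 signals. For *Cyct* over *Cycs* the WT mice gave -0.01 and -0.03 and the mutant mice 0.02 and 0.24. The genotypes did not overlap, and the mean rose by 0.15, most of which came from the second mutant mouse: without it the difference was 0.04. The exact two-sided permutation test over the 4 arrays gave p = 0.333, the smallest that 2 against 2 mice can give (adjusted p = 1 over 3 pairs). *Cox6b2* over *Cox6b1* differed by 0.08 and *Cox8c* over *Cox8a* by -0.05 between the genotypes, with overlapping arrays and an exact permutation p of 1 for each.

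**Figure D3:**
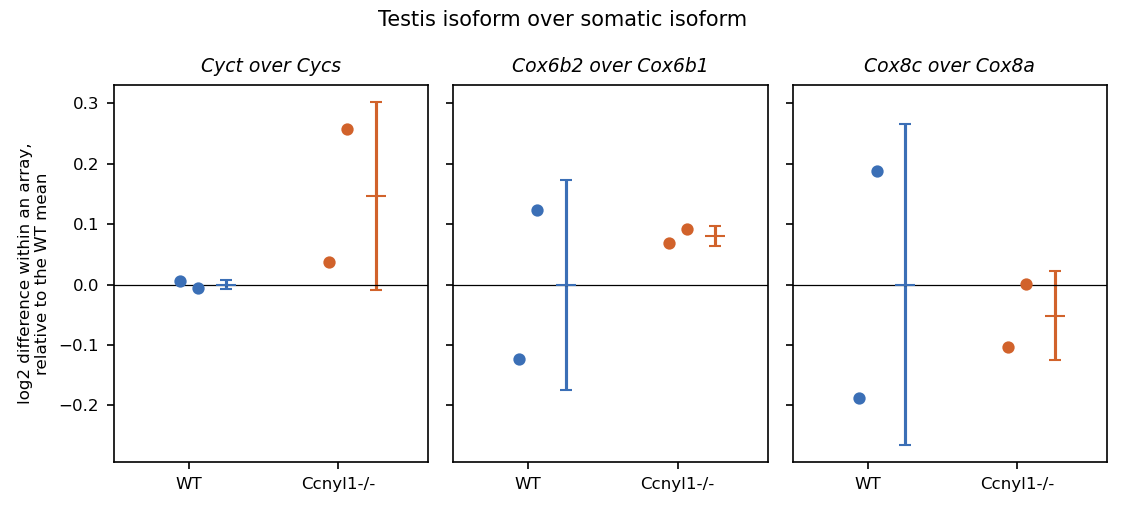
Log2 signal of the testis isoform minus that of the somatic isoform within an array, drawn relative to the WT mean, for 3 pairs; dots are mice and bars the mean ± SD (n = 2 mice a genotype). The mutant mean lies 0.15 above WT for *Cyct* over *Cycs*, 0.08 above for *Cox6b2* over *Cox6b1* and 0.05 below for *Cox8c* over *Cox8a*, and only in the first pair are the genotypes apart.

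In complex I, which oxidises NADH, 8 of 21 subunits were above 0 and 13 below, with a median of -0.02 and 0 called. *Ndufv1*, which binds NADH and its flavin, read 4913 and 4676 in WT and 4545 and 3722 in *Ccnyl1*-/- testis. Both mutants were below WT, the second clearly lower than the first. The log2 fold change was -0.22 ± 0.09 (95% interval -0.43 to -0.01, limma adjusted p = 0.816), and without the second mutant mouse it was -0.08. Other probe sets of *Ndufv1* gave -0.08 and -0.14. Its partner *Ndufv2*, an iron-sulphur subunit of the NADH-oxidising tip, read 12827 and 12812 against 12583 and 13450, with the mutants on either side of WT. *Ndufv3*, an accessory subunit beside them, overlapped as well (-0.06 ± 0.08).

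*Ndufs1*, the largest iron-sulphur subunit, read 2656 and 2833 in WT and 2295 and 2637 in the mutants, just apart, with a log2 fold change of -0.16 ± 0.09 (limma adjusted p = 0.845). *Ndufs1* lies on chromosome 1 13 protein-coding genes away from *Ccnyl1*, nearest to it of the 5 members on that chromosome, and the part of this position in the value was not tested. *Ndufs3*, a core subunit of the arm that leads to ubiquinone, read 5786 and 5845 against 5262 and 5434. Both mutants were below WT there (-0.12 ± 0.06). *Ndufs7* and *Ndufs8*, which carry the last iron-sulphur clusters before ubiquinone, overlapped, at -0.02 and -0.04.

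Of the accessory subunits of complex I, *Ndufs4* read 2934 and 3126 in WT and 3235 and 3464 in the mutants (0.14 ± 0.07), *Ndufb6* 3508 and 3761 against 3987 and 4031 (0.14 ± 0.07), and *Ndufb9* 6262 and 6213 against 6668 and 6915 (0.12 ± 0.06). In these genes, and in *Ndufa10* (0.10 ± 0.07), both mutants were above WT on the brightest probe set, with limma adjusted p-values of 0.820 to 0.872. The second probe set of *Ndufb6* gave 0.10, but a second bright one of *Ndufb9* gave -0.02, with overlapping genotypes. That of *Ndufa10*, dim at a mean signal of 33.3, gave -0.93 ± 0.50 with both mutants lower. *Ndufb6*, *Ndufb9* and *Ndufa10* belong to the membrane arm, which pumps protons, and *Ndufs4* to the matrix arm. *Ndufa2*, *Ndufa5*, *Ndufa6*, *Ndufa8*, *Ndufa9*, *Ndufb3*, *Ndufb5*, *Ndufb7*, *Ndufb8* and *Ndufb10* overlapped between the genotypes, with log2 fold changes from -0.12 (*Ndufa6*) to 0.05 (*Ndufb8*). Higher and lower members therefore stood side by side within the complex.

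Complex II oxidises succinate and has only nuclear-coded subunits. The flavoprotein *Sdha* read 4808 and 4675 in WT and 4473 and 4543 in *Ccnyl1*-/- testis, with the mutants lower (-0.07 ± 0.06), and the iron-sulphur subunit *Sdhb* overlapped (-0.03 ± 0.06). The membrane anchor *Sdhd* read 1442 and 1345 against 1603 and 1464, with both mutants above WT (0.14 ± 0.09), and the other anchor *Sdhc* read 1213 and 1200.3 against 1366 and 1200.1, which overlapped (0.08 ± 0.10). On these probe sets the catalytic subunits were below 0 and the anchors above, but none passed the test. Their limma adjusted p-values were 0.864 to 0.959. Dimmer probe sets of *Sdha*, with mean signals of 774 and 86.2, gave 0.03 and 0.11, with overlapping genotypes. Dimmer probe sets of the anchors were above 0 and are given with the further probe sets.

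In complex III, which passes electrons from ubiquinol to cytochrome c, 2 of 7 subunits were above 0 and 5 below, with a median of -0.06 and 0 called. *Uqcrc1*, a core protein of the matrix side, read 8085 and 8248 in WT and 7084 and 7616 in the mutants. Both mutants were clearly below WT, and the log2 fold change was -0.15 ± 0.06 (95% interval -0.28 to -0.02, limma adjusted p = 0.796). The second core protein *Uqcrc2* read 5106 and 5469 against 4780 and 5007, again with both mutants lower (-0.11 ± 0.06), although its dimmer probe set gave 0.07.

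*Uqcrb*, a small subunit near the ubiquinone site, was 18137 and 18855 in WT and 17894 and 17617 in the mutants (-0.06 ± 0.04). The mutants were lower by this probe set and higher by another, given with the further probe sets. *Uqcrq*, another small subunit, was 7321 and 7520 against 7780 and 7654, with both mutants above WT (0.06 ± 0.05). The subunits that carry the electrons, the Rieske protein *Uqcrfs1* (0.08 ± 0.09) and cytochrome c1 *Cyc1* (-0.08 ± 0.09), and the hinge protein *Uqcrh* (-0.05 ± 0.08) overlapped between the genotypes.

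Complex IV, cytochrome c oxidase, had 5 subunits above 0 and 5 below, with a median of -0.01 and 0 called. *Cox5b*, a zinc-binding subunit, read 12327 and 12117 in WT and 11601 and 9688 in *Ccnyl1*-/- testis. Both mutants were lower, and as with *Ndufv1* the second was the lowest of the 4. The log2 fold change was -0.20 ± 0.08 (95% interval -0.38 to -0.03, limma adjusted p = 0.797), and it was -0.08 without the second mutant mouse. Its other tested probe sets were also below 0, at -0.16, -0.06 and -0.11. The brightest one carries the suffix _x_at, and each of the others _x_at or _a_at. Without the first mutant mouse, where the mutant side was the second mouse alone, the log2 fold change of *Cox5b* was -0.33.

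*Cox5a*, the partner subunit on the matrix side, read 19428 and 19245 against 19949 and 20734, with both mutants above WT (0.07 ± 0.04). *Cox6a1*, the common form of a regulatory subunit, read 20359 and 19072 against 19050 and 18119, just apart with the mutants lower (-0.08 ± 0.05). *Cox7a2* and *Cox4i1*, the common forms of subunits with tissue isoforms, were lower in both mutants by small amounts (-0.05 ± 0.04 and -0.02 ± 0.04), and *Cox6c* overlapped (0.04 ± 0.06).

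Of the members, 28 had more than 1 probe set, which gave 49 further probe sets, of which 41 passed the minimum signal and 8 were too dim to test. Of the 41, 24 had the sign of the brightest probe set of their gene and 17 the opposite sign, and 0 were called. At an unadjusted p under 0.05, 5 were higher and 3 lower, against the 3.47% and 2.59% above. The dimmer *Sdhc* probe set read 396 and 420 in WT and 594 and 626 in the mutants (0.56 ± 0.12, limma adjusted p = 0.645), and that of *Sdhd* 296 and 302 against 399 and 423 (0.44 ± 0.14). Both mutants stood well above WT in each, in the direction of the brightest probe sets of these anchors but with larger differences. Both dimmer probe sets carry the suffix _x_at, one of those left out in the alternative without suffixed probe sets.

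The second probe set of *Uqcrb* read 2967 and 2996 in WT and 3538 and 3867 in the mutants (0.31 ± 0.07), which is opposite in sign to the brightest one. *Cox5a* likewise had probe sets on both sides, one at 15321 and 15897 against 14863 and 13578 (-0.14 ± 0.05) and one at 11986 and 12177 against 12768 and 13417 (0.12 ± 0.05). The genotypes were apart in each of these, so that the direction of *Uqcrb* and *Cox5a* depended on the probe set read. *Ndufs4* (0.35) and *Ndufs8* (-0.27) each had one further probe set at this p with the sign of the brightest one, and so did *Cox5b* (-0.16). These also carry the suffix _x_at. Of the 15 further probe sets with a mean signal under 1000, 11 were above 0 and 3 were higher at this p, where 3.38% of all probe sets under 1000 were higher, and of the 26 brighter ones 13 were above 0.

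**Figure D4:**
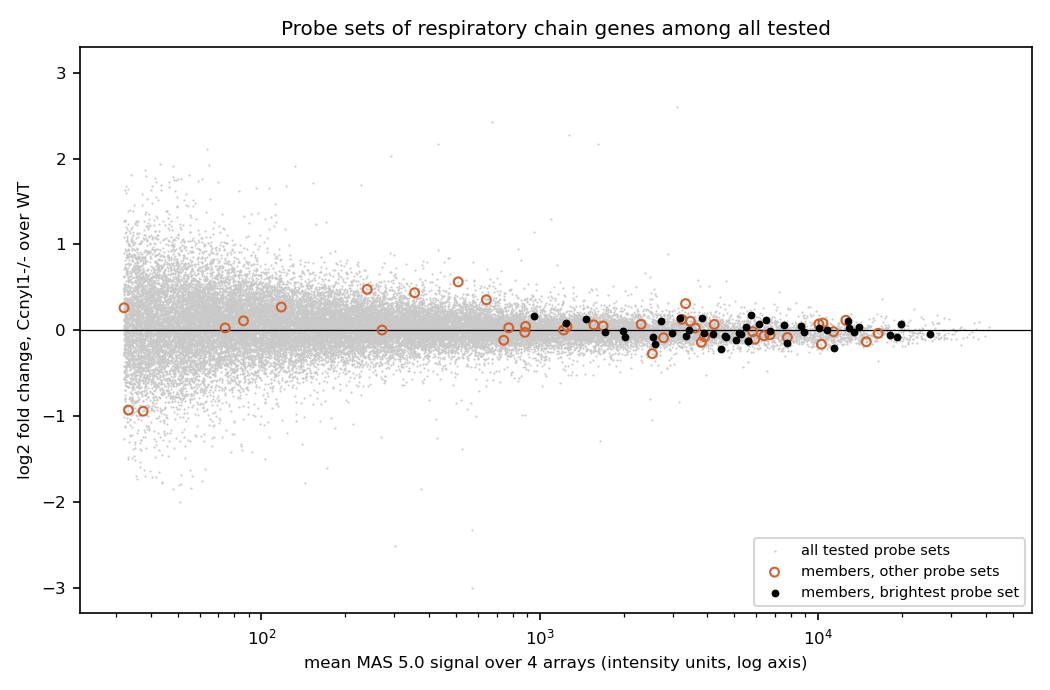
Log2 fold change, *Ccnyl1*-/- over WT, against the mean MAS 5.0 signal over 4 arrays (log axis) for all 32438 tested probe sets (grey), the brightest probe set of each of the 44 members (black) and their 41 other tested probe sets (open orange circles). The black points lie within -0.22 to 0.18 in the bright part of the array, where all probe sets scatter little, while the open circles reach -0.94 and 0.56 among dim probe sets.

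Summed over members, the array signal of each complex differed little. Complex I summed to 108846 and 110111 in WT and 108259 and 109388 in *Ccnyl1*-/- testis, and complex IV to 131798 and 130601 against 131852 and 127634, both overlapping. Complex III summed to 51961 and 51455 against 50196 and 49994, with both mutants lower. Its brightest members, *Uqcrb* and *Uqcrc1*, weigh most in this sum, and the direction of *Uqcrb* depended on the probe set read. The cytochromes c summed to 10606 and 11107 against 11385 and 12053, with both mutants higher. Of these genes *Cycs* overlapped between the genotypes, and *Cyct* was higher in both mutants and highest in the second.

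The remaining genes of the pathway gave 0 calls among all those tested. Of 13 tested further subunits of complex I, 6 were above 0 and 7 below; *Ndufa13* read 10519 and 9689 in WT and 8826 and 8900 in the mutants (-0.19 ± 0.06, limma adjusted p = 0.729), and *Ndufb2* was at 0.15 ± 0.07. Of 4 further subunits of complexes III and IV, *Cox7c* (0.43 ± 0.22) and *Uqcr10* (0.11 ± 0.07) were farthest from 0, and *Cox7c* was read on a dim probe set with a mean signal of 129. The muscle isoform *Cox6a2* (0.26 ± 0.38) and the lung isoform *Cox4i2* (-0.23 ± 0.35) were dim, with mean signals of 96.5 and 58.9, and overlapped. ATP synthase had 8 of 16 genes above 0 and a median of 0.00, with *Atp5l* at 0.11 ± 0.08 and *Atp5d* at -0.10 ± 0.06 as the farthest. Of 13 subunits coded by mitochondrial DNA, only *ND5* was paired with a probe set. It read 4792 and 5034 against 4969 and 4594, which overlapped (-0.04 ± 0.07).

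Assembly factors, which build the complexes and are not part of them, had 22 of 38 tested genes above 0, with *Ndufaf6* at 0.46 ± 0.29 and *Sdhaf2*, which attaches the flavin of *Sdha*, at 0.42 ± 0.17 (limma adjusted p = 0.810). Regulators of respiratory genes and of mitochondrial DNA had 5 of 14 above 0, the farthest being *Gabpa* (0.32 ± 0.14), a subunit of the factor GABP, and the coactivator *Ppargc1b* (0.16 ± 0.23). Of the enzymes and carriers that feed or use the chain, 4 of 9 were above 0. *Etfb*, which takes electrons from fatty acid oxidation, read 1516 and 1209 in WT and 1052 and 1041 in the mutants (-0.37 ± 0.12, limma adjusted p = 0.758), and *Nnt*, which uses the proton gradient to make NADPH, read 1883 and 2205 against 2435 and 2804 (0.36 ± 0.10, limma adjusted p = 0.719). The genotypes were apart in both, in opposite directions, but a second bright probe set of *Nnt* read 1493 and 1840 against 1912 and 1827, which overlapped (0.17 ± 0.11).

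Other mitochondrial proteins made in the testis were compared with the 3 testis isoforms of the chain. Of 6 tested, 5 were above 0, with a median of 0.03 and 0 called. *Smcp*, a protein of the capsule around sperm mitochondria, read 24994 and 25035 in WT and 27488 and 29122 in *Ccnyl1*-/- testis, with both mutants above WT (0.18 ± 0.04, 95% interval 0.08 to 0.27, limma adjusted p = 0.645). *Slc25a31*, the ADP/ATP carrier of germ cells, read 3598 and 3716 against 4132 and 3956, again with both mutants higher (0.14 ± 0.06, limma adjusted p = 0.820). *Pdha2*, the testis form of a pyruvate dehydrogenase subunit, was at 0.03.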

How the data were processed

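Total RNA of the testes of 2 WT and 2 *Ccnyl1*-/- mice was measured on Affymetrix GeneChip Mouse Genome arrays. The intensity values deposited by the authors are MAS 5.0 signals, computed array by array with default settings and global scaling, so that probe effects remain and signals of different probe sets do not rank RNA levels; signal ranges and sums over genes describe brightness on the array only. The stated scaling target was 100, whereas the 2% trimmed mean of each array as deposited is 500.0; the offset and minimum below were kept. The table holds 45101 probe sets, of which 64 controls were left out, and columns of other samples numbered 0. The number of arrays limits the precision.

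Genotypes were compared on log2(signal + 16) in R 4.3.3 with limma 3.58.1 (lmFit, eBayes with a trend), over 32438 probe sets with a mean signal of at least 32, with Benjamini-Hochberg adjustment over all of them (threshold 0.05). Fold changes on this scale understate those of dim probe sets. The 95% intervals are those of the moderated fit, whose only term was genotype. Replicate numbers name no shared animal, litter or day, and were not used for pairing.

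The 44 members, the pathway lists and the markers were chosen with earlier results of these data known. The rule named all members, *Ccnyl1*, and the 2 genes farthest from 0 of each other pathway list (107 of 126 listed genes had a probe set). Named after their values were seen were *Cox7b2*, *Pdha2*, the germ cell, muscle and fat markers named above, and the genes in the closing section. Promoter sequences are from RefSeq on GRCm38.p6, where 33 members had an entry; the 11 others, *Cox8c* among them, are named only. Alternatives changed the offset, the minimum signal, the scaling, the variance model, the test, the probe set choice and the mice included.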

Additional observations from a re-analysis of the deposited data

How the results depend on the processing

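The count of members called was 0 under all 16 alternatives. The count of probe sets called, 4 as reported, was 7 with the arrays scaled to one median, 0 without the variance trend and 0 by the methods' t-test (1906 and 1900 probe sets at an unadjusted p under 0.05), and 6 to 55 without 1 mouse in turn; without WT mouse 1 it was 46, without WT mouse 2 it was 55 and without mutant mouse 1 it was 7. The call of *Ccnyl1* was lost without the trend (limma adjusted p = 0.596) and by the methods' t-test (0.723 after Benjamini-Hochberg). The median of the members, -0.02 as reported, was -0.00401 after quantile normalisation and -0.0240 to -0.00448 without 1 mouse in turn. With the arrays scaled to one median it was -0.101, where the median of all probe sets was -0.05. It was 0.0249 without probe sets that carry the suffix _a_at, _s_at or _x_at, as 23 of the 44 brightest do. In that alternative 11 members had no probe set. *Cox8c* over *Cox8a* was 0.271 when all probe sets of each gene were averaged. Without 1 mouse in turn the isoform pairs ranged from 0.04 to 0.26 (*Cyct* over *Cycs*), -0.04 to 0.20 (*Cox6b2* over *Cox6b1*) and -0.24 to 0.14 (*Cox8c* over *Cox8a*). Of the 44 members, 16 kept their sign in all alternatives run for them and 28 did not; *Cyct*, *Cox8c*, *Ndufv1*, *Cox5b* and *Uqcrc1* were among the 16. The alternative without suffixed probe sets could not be run for 11 members, *Cox5b* and *Uqcrc1* among them, so for these the statement covers 15. Alternatives that changed only the minimum signal, the variance model, the test or the block left each fold change as it was and could not turn a sign. *Cyct* and *Uqcrc1* had 1 probe set each, so averaging probe sets could not change them either. A mouse left alone in its genotype was assumed to vary like the others. The cause of these changes was not tested.

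With the replicate number as a block, 14 probe sets were called (4 higher and 10 lower) and 0 members. Deviations of same-numbered mice correlated at 0.01 over all tested probe sets, 0.19 over those with a signal of at least 1000 and 0.27 over the members. The labels give no pairing, so this block is only a number shared by the samples. With 2 mice a genotype, differences within the intervals given could not be resolved, and dim probe sets least of all: 18.2% of all tested probe sets had an interval within 1.25-fold, against 73.7% of those with a signal of at least 1000.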

Other observations

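Markers of Leydig cells and macrophages varied more between mice of a genotype than the respiratory chain genes did, with a median SD of 0.49 and 0.18 on the log2 scale against 0.06. The median SD was 0.16 over all tested probe sets and 0.07 over those with a signal of at least 1000, and every macrophage marker had a mean signal under 1000. Leydig cells make testosterone and their mitochondria cleave cholesterol. Their 5 tested markers summed to 7149 and 3935 in WT and 9293 and 5220 in *Ccnyl1*-/- testis, which overlapped, and 4 of 5 were above 0, among them *Cyp17a1* (0.51) and *Star* (0.57). Of 8 macrophage markers, 7 were below 0 with a median of -0.20, and their sums of 3909 and 2729 in WT and 2784 and 2481 in the mutants overlapped. *H2-Aa*, a class II antigen gene, was farthest from 0 among them by its brightest probe set (-0.62, limma adjusted p = 0.645). Other tested probe sets of *H2-Aa* gave -0.64 and 0.13, with overlapping genotypes in each. None of these markers was called.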
